A study of Mus musculus with 6 samples.

Results

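The genes of the proteasome were followed in single-cell RNA of mouse bone marrow. They were chosen by symbol: every gene named Psma, Psmb, Psmc, Psmd or Psme with a number, pseudogenes left out. This gave 45 of the 32285 genes counted. The proteasome is the cell's main machine for destroying proteins tagged with ubiquitin. Its 20S core is a barrel of alpha subunits (Psma) and beta subunits (Psmb), 3 of which cut proteins, and its 19S cap holds ATPases (Psmc) and further subunits (Psmd) that bind, unfold and feed in the tagged protein. In cells of the immune system the cutting subunits Psmb5, Psmb6 and Psmb7 can be replaced by Psmb8, Psmb9 and Psmb10, which form the immunoproteasome and favour the peptides shown on MHC class I, and the PA28 caps Psme1 and Psme2 open the same barrel.

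Bone marrow came from BALB/c mice that were 10 weeks old at harvest and was enriched for c-Kit, a marker of stem and progenitor cells, on magnetic beads. Each of 3 pools, run as 1 lane each, held 1 mouse without a tumor (NTB), 1 mouse bearing 4T1, a mammary carcinoma line placed in the mammary gland, and given vehicle (DPBS, Veh), and 1 mouse bearing 4T1 and given brequinar (BRQ) at 10 mg/kg. Vehicle and brequinar were injected intraperitoneally each day for 2 weeks, starting once tumors could be measured. Brequinar blocks DHODH, an enzyme of pyrimidine synthesis, and no mouse without a tumor received it, so the BRQ-NTB difference joins tumor and drug.

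Hashtag antibodies gave 15966 cells to 1 mouse each, between 382 and 2780 per mouse, and 127 barcodes occurred in more than 1 pool. Granulocyte-monocyte progenitors (GMPs) were the cells with high Ms4a3, a gene of that stage, with 88 to 177 cells per NTB mouse, 95 to 1017 per Veh mouse and 653 to 806 per BRQ mouse, and 998154 to 16074010 unique molecular identifiers (UMIs) per mouse. Other cells are named by their marker genes and written with -like. Median UMIs per GMP ran from 10828.5 to 11581 in NTB mice, from 14737 to 17966 in Veh mice and from 12168.5 to 15795 in BRQ mice. Summed over the GMPs of a mouse, 14 neutrophil markers took 47542 to 51004 CPM (UMIs scaled to the same total) in NTB mice, 34291 to 38051 in Veh mice and 27174 to 38522 in BRQ mice, 6 macrophage markers took 272 to 309.6, 161 to 175 and 65.3 to 196, 9 stem cell markers took 41.9 to 45.1, 42.7 to 47.1 and 67.7 to 84.7, and 8 monocyte markers took 55.1 to 71.1, 55.8 to 68.7 and 99.9 to 155. Basophil, mast and eosinophil markers took 123 to 178, 85.5 to 113 and 185 to 201, with 1 of the 10 at 0. Groups also stood apart in some comparison for B cell markers, with 49.2 to 68.1, 28.3 to 36.2 and 40.2 to 47.8 (1 marker at 0), and T/NK markers, with 1103 to 1343, 1018 to 1085 and 963 to 1118 (3 at 0). So did stromal markers (2.00 to 5.47, 3.61 to 5.60 and 6.96 to 11.8), lymphoid progenitor markers (5.01 to 20.1, 2.26 to 4.81 and 4.39 to 6.41) and erythroid markers (82.2 to 133, 129 to 144 and 85.9 to 121). No marker of the other lists named here was at 0 in every mouse, and the part of these marker differences in the results that follow was not tested. For depth, fits with the median UMIs per cell as a covariate were run, and 11 of 30 calls of named genes were lost in them. In GMPs the NTB mice were shallower than all other mice, so in comparisons with NTB these fits cannot tell depth from group.

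Of the 45 genes, 44 passed the filter on low counts in GMPs. Psmb11, the beta subunit of thymus epithelium, had 0 UMIs. Psma8, an alpha subunit of the testis, had 727 UMIs in all cells together and Psme2b, a retrocopy of Psme2, had 896. Reads of Psme2 and Psme2b may be split between them, so both are uncertain. Psmc3ip carries the symbol but codes for a protein of meiotic recombination and not for a subunit.

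Promoters were available for 38 of the 45 genes, as the 250 bases before and 50 bases after the RefSeq start on GRCm38.p6. They were searched on both strands for CCAAT, the box bound by NF-Y, for TGACNNNGC, the core bound by NRF1 with a small Maf partner, and for a pair of TTTC blocks with 2 bases between them, the core bound by interferon regulatory factors. None of the 3 motifs lies inside another. The stretches before the start of 3 subunit genes that differed most between Veh-GMPs and NTB-GMPs are shown, on the plus strand with the motif in capitals.
Psmd14, chr2:61711495-61711594, CCAAT on the opposite strand: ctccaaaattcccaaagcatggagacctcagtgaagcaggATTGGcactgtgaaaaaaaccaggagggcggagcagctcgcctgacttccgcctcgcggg
Psma3, chr12:70974444-70974543, CCAAT: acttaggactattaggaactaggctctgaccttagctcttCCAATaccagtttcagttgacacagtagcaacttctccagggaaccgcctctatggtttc
Psmd12, chr11:107479278-107479377, TGACNNNGC on the opposite strand: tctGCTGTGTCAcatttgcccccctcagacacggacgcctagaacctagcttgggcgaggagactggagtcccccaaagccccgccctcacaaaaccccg

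CCAAT stood in 15 of the 38 promoters (39.5%), against 41.1% of the promoters of all 27025 genes. TGACNNNGC stood in 6 (15.8%), against 14.0% of all. The TTTC pair stood in 4 (10.5%), those of Psmb3, Psmd4, Psmd9 and Psme1, against 3.99% of all. Of the 15 genes that rose in Veh-GMPs, as given next, 11 had a promoter, and CCAAT stood in 3 of them, TGACNNNGC in 2 and the TTTC pair in 0.

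The comparison of Veh with NTB asked how GMPs of tumor-bearing mice differed from those of mice without a tumor. In Veh-GMPs 15 of the 44 proteasome genes rose and 0 fell, at an adjusted p under 0.05 (edgeR's quasi-likelihood test, Benjamini-Hochberg over all genes), where 11.3% of all 10331 genes tested were called in either direction 6.63% higher and 4.68% lower. The fitted change was above 0 for 40 of the 44 genes, against 48.4% of all genes, and its median was 0.30 on the log2 scale, against -0.01 over all genes. Groups did not overlap for 20 genes, 19 higher and 1 lower, where 15.2% and 13.2% of all genes did not overlap in those directions. The 31 constitutive genes of the core and cap all had a fitted change above 0, from 0.08 to 0.59, and held all 15 calls.

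By part of the particle, the lid of the cap, which removes the ubiquitin of the bound protein, had 7 of 8 genes called, with a median log2 fold change of 0.40. The ATPases, which unfold the protein, had 3 of 6 called (median 0.36), and the base subunits that are not ATPases had 1 of 3 (0.26). The alpha ring, the gate of the barrel, had 3 of 7 called (0.27), and the beta subunits that do not cut had 1 of 4 (0.17). None of the 3 constitutive cutting subunits (0.28), the 3 cap assembly chaperones (0.16), the 3 immunoproteasome subunits (0.12) or the PA28 genes was called. The share of calls per class was not tested, and the classes are small.

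Psmd14, the enzyme of the lid that removes ubiquitin chains, had the largest change. It lies on chromosome 2 from 61711694 to 61800376 of GRCm38. After scaling with TMM factors its level in GMPs was 80.7, 84.1 and 76.1 CPM in the NTB mice of pools 1, 2 and 3, and 122, 134 and 109.9 in the Veh mice. Every Veh mouse lay above every NTB mouse, with a log2 fold change of 0.59 (SE 0.10, adjusted p = 0.000569).

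Psma3, an alpha ring subunit, had 249.6, 198 and 197 CPM in NTB mice and 342, 309.6 and 262 in Veh mice (log2 fold change 0.52, SE 0.11, adjusted p = 0.00444). Psmd12, a lid subunit, had 64.3, 50.8 and 48.1 CPM against 77.7, 80.2 and 68.3 (0.50, SE 0.12, adjusted p = 0.00721). In both genes the NTB mouse of pool 1 was the highest of its group and still below the lowest Veh mouse. Psmc4, a cap ATPase, had 49.1, 45.8 and 41.4 CPM against 65.0, 63.3 and 58.2 (0.48, SE 0.12, adjusted p = 0.00935). Psmd2, the large base subunit that docks ubiquitin receptors and shuttle factors, had 83.9, 112 and 108 CPM against 132, 152 and 150.3 (0.47, SE 0.10, adjusted p = 0.00487). Neither gene overlapped between the groups.

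The smallest called changes were in Psmd11, Psmd8, Psmd13, Psmc3 and Psma7. Psma7, an alpha ring subunit and one of the most abundant of the family, had 558, 538 and 504 CPM in NTB mice and 679, 638 and 643 in Veh mice (0.30, SE 0.09, adjusted p = 0.0291). Psmc3, an ATPase, had 118, 112 and 129 CPM against 146, 151 and 150.5 (0.31, SE 0.09, adjusted p = 0.0317). Both were apart in every mouse. The lid subunit Psmd11 was also apart, with 65.4, 79.7 and 76.1 CPM against 99.1, 92.8 and 96.1 (0.37, SE 0.10, adjusted p = 0.0203). Psmd8, another lid subunit, had 86.1, 75.3 and 63.5 CPM against 104, 92.1 and 84.8 (0.37, SE 0.12, adjusted p = 0.0461), and Psmd13, also of the lid, had 102, 89.1 and 80.4 against 118, 125 and 101 (0.35, SE 0.11, adjusted p = 0.0486). In these last genes 1 Veh mouse lay below the highest NTB mouse. The other called genes were Psmb2, Psmd3, Psma5, Psmd7 and Psmc6, with fitted changes from 0.42 to 0.45.

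Within each pool the mice shared a lane. Of all 44 genes, 32 were higher in the Veh mouse than in the NTB mouse in every pool and 2 were lower, where 23.1% and 22.4% of all genes were; the 32 include all 15 called genes, which the fit over the same mice had chosen as higher. The count of calls depended on single mice: it was 4 without the NTB mouse of pool 3, 4 without the Veh mouse of pool 1, 7 without the NTB mouse of pool 2 and 21 at most. Here and below, such counts stand without the share of all genes called in those fits. A general loss or gain of calls may therefore enter them. Among the 10 named genes, Psmd14, Psma3 and Psmd2 were called whichever mouse was left out. With the median depth per cell as a covariate 20 genes were called, all higher, where 5.32% of all genes were called higher. The depths of NTB and Veh mice did not overlap, so this fit cannot tell depth from tumor. In that fit Psmd14 had 0.63 and Psma3 had 0.98, while Psmd2 (0.25, adjusted p = 0.391), Psmc3 (0.18, adjusted p = 0.545) and Psmd11 (0.39, adjusted p = 0.142) lost their calls. With the pool as a block in the fit 23 genes were called higher and 1 lower, where 9.57% and 6.81% of all genes were. DESeq2 called 11, all higher, where 5.87% of all genes were called higher.

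**Figure D1:**
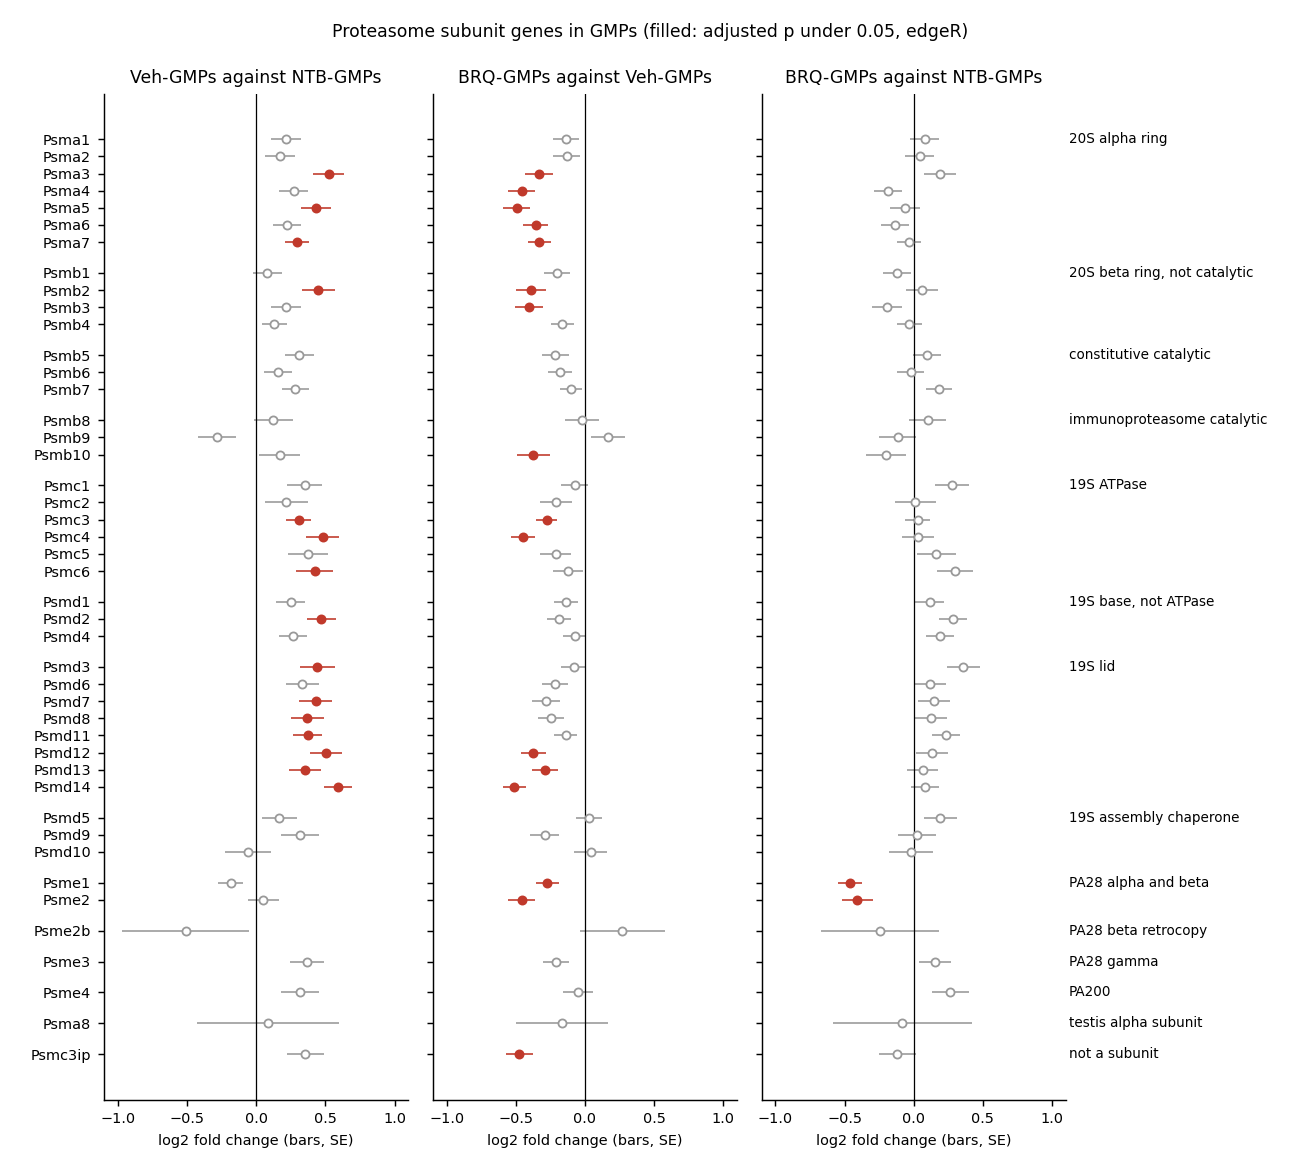
Log2 fold change of each proteasome gene in GMPs (horizontal axis), with genes grouped by their place in the particle, for Veh against NTB, BRQ against Veh and BRQ against NTB, with bars for the SE. Filled points passed an adjusted p under 0.05: 15 genes lie to the right in the first comparison, 16 to the left in the second and 2 to the left in the third.

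The comparison of BRQ with Veh asked what brequinar changed in GMPs of tumor-bearing mice. In BRQ-GMPs 16 of the 44 genes fell and 0 rose (edgeR, adjusted p under 0.05), where 13.4% of all genes were called, 7.37% lower and 6.08% higher. The fitted change was above 0 for 4 genes, against 50.1% of all genes, with a median of -0.21, against 0.00 over all genes. Groups did not overlap for 22 genes, all lower, where 15.4% of all genes were lower without overlap. These values are relative to the other genes of the GMPs: with library size alone as the scale, the median over all genes was 0.20, that of the family was -0.01, and 4 genes were called, 3 lower and 1 higher, where 2.51% of all genes were called lower and 19.2% higher.

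All 31 constitutive genes had a fitted change below 0 under TMM scaling, from -0.51 to -0.07, and 12 of them were called. The alpha ring had 5 of 7 called (median -0.33), the beta subunits that do not cut 2 of 4 (-0.30), the lid 3 of 8 (-0.26) and the ATPases 2 of 6 (-0.21). None of the 3 constitutive cutting subunits (-0.18), the 3 base subunits that are not ATPases (-0.14) or the 3 chaperones (0.03) was called. Both Psme1 and Psme2 (median -0.37) and 1 immunoproteasome subunit, Psmb10, were among the calls.

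Psmd14 again had the largest change, with 85.2, 82.3 and 86.3 CPM in the BRQ mice, below all 3 Veh mice (-0.51, SE 0.08, adjusted p = 0.000249). Psma5, an alpha ring subunit, had 227, 227 and 207 CPM in Veh mice and 163, 164 and 141 in BRQ mice (-0.49, SE 0.10, adjusted p = 0.00123). Psma4, of the same ring, had 391, 320.3 and 322 CPM against 278, 257 and 222 (-0.46, SE 0.10, adjusted p = 0.00246). In each of the 3 genes the groups stood apart. Psmc3ip, the gene that is no subunit, had 46.9, 39.5 and 40.0 CPM against 31.1, 33.0 and 29.3 (-0.47, SE 0.10, adjusted p = 0.00248). Psme2 had 123, 112 and 123 CPM against 89.7, 92.3 and 81.8 (-0.46, SE 0.10, adjusted p = 0.00263). These groups did not overlap either.

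The smallest called changes were those of Psme1, Psmc3, Psmd13, Psma7 and Psma3. Psma7 had 525, 555 and 481 CPM in BRQ mice, all below the Veh mice (-0.33, SE 0.08, adjusted p = 0.00992), and Psmc3 had 123, 117 and 128, also below them (-0.28, SE 0.08, adjusted p = 0.0204). Psme1 had 235, 232 and 235 CPM in Veh mice and 184, 214 and 185 in BRQ mice, again apart (-0.27, SE 0.08, adjusted p = 0.0284). Psma3 with 273, 233 and 221 CPM (-0.33, SE 0.10, adjusted p = 0.034) and Psmd13 with 103, 86.9 and 89.4 CPM (-0.29, SE 0.09, adjusted p = 0.0467) each had 1 BRQ mouse above the lowest Veh mouse. The other called genes, besides Psmb10, were Psmc4, Psmb3, Psmb2, Psmd12 and Psma6, with fitted changes from -0.45 to -0.36.

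Of all 44 genes, 33 were lower in the BRQ mouse than in the Veh mouse in every pool and 1 was higher, where 24.6% and 24.4% of all genes were. The 33 include all 16 called genes, which the fit over the same mice had chosen as lower. The count of calls was 5 without the Veh mouse of pool 1, 9 without the Veh mouse of pool 2 and 17 at most. Psmd14, Psma5, Psma4 and Psme2 were called whichever mouse was left out. DESeq2 called 13 of the family, all lower, where 5.1% of all genes were called lower.

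Veh against NTB and BRQ against Veh share the 3 Veh mice, so a deviation of those mice enters both with opposite sign. For Psmd14 the changes were 0.59 and -0.51, for Psma5 0.43 and -0.49, for Psmc4 0.48 and -0.45, and for Psmd12 0.50 and -0.37.

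The comparison of BRQ with NTB, which does not use the Veh mice for its means, called 2 of the 44 genes, both lower (edgeR), where 6.01% of all genes were called, 3.46% lower and 2.56% higher. The fitted change was above 0 for 28 genes (49.6% of all genes), with a median of 0.06. With library size alone as the scale, the median over all genes was 0.16, that of the family was 0.22, and 9 genes were called, 8 higher and 1 lower, where 10.7% of all genes were called higher and 2.1% lower. Psmd14 had a fitted change of 0.08 (adjusted p = 0.705), and Psmd2, at 125, 122 and 131 CPM in BRQ mice against 83.9, 112 and 108 in NTB mice, had 0.29 (adjusted p = 0.0983). With the pool as a block 2 genes were called higher and 2 lower, where 5.58% and 6.2% of all genes were.

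The 2 genes were Psme1 and Psme2, which form the PA28 cap together. Psme1 fell from 283, 267 and 253 CPM in NTB mice to 184, 214 and 185 in BRQ mice (-0.46, SE 0.09, adjusted p = 0.00256), with its Veh mice between at 235, 232 and 235. Psme1 was below NTB in every Veh mouse, but its change of -0.19 did not pass the test (SE 0.09, adjusted p = 0.187). Psme2 had 148, 99.1 and 111 CPM in NTB mice and 89.7, 92.3 and 81.8 in BRQ mice (-0.41, SE 0.11, adjusted p = 0.0298), all BRQ mice below all NTB mice. Between Veh and NTB it had a change of 0.05 (adjusted p = 0.844). Psme1 was called whichever mouse was left out. Psme2 lost its call in 3 of the 9 fits that left out a mouse (-0.26 for NTB pool 1, -0.46 for NTB pool 3, -0.35 for BRQ pool 3), with library size alone (-0.25), with the depth covariate (-0.31, adjusted p = 0.12), and with other choices of cells: its change was -0.28 in cluster 0 alone, -0.06 in cluster 3 alone, -0.22 in the GMP-like clusters and -0.28 at an Ms4a3 limit of 2.5. The genes are neighbours on chromosome 14, Psme1 from 55578123 to 55581529 and Psme2 from 55587441 to 55591113, on opposite strands.

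**Figure D2:**
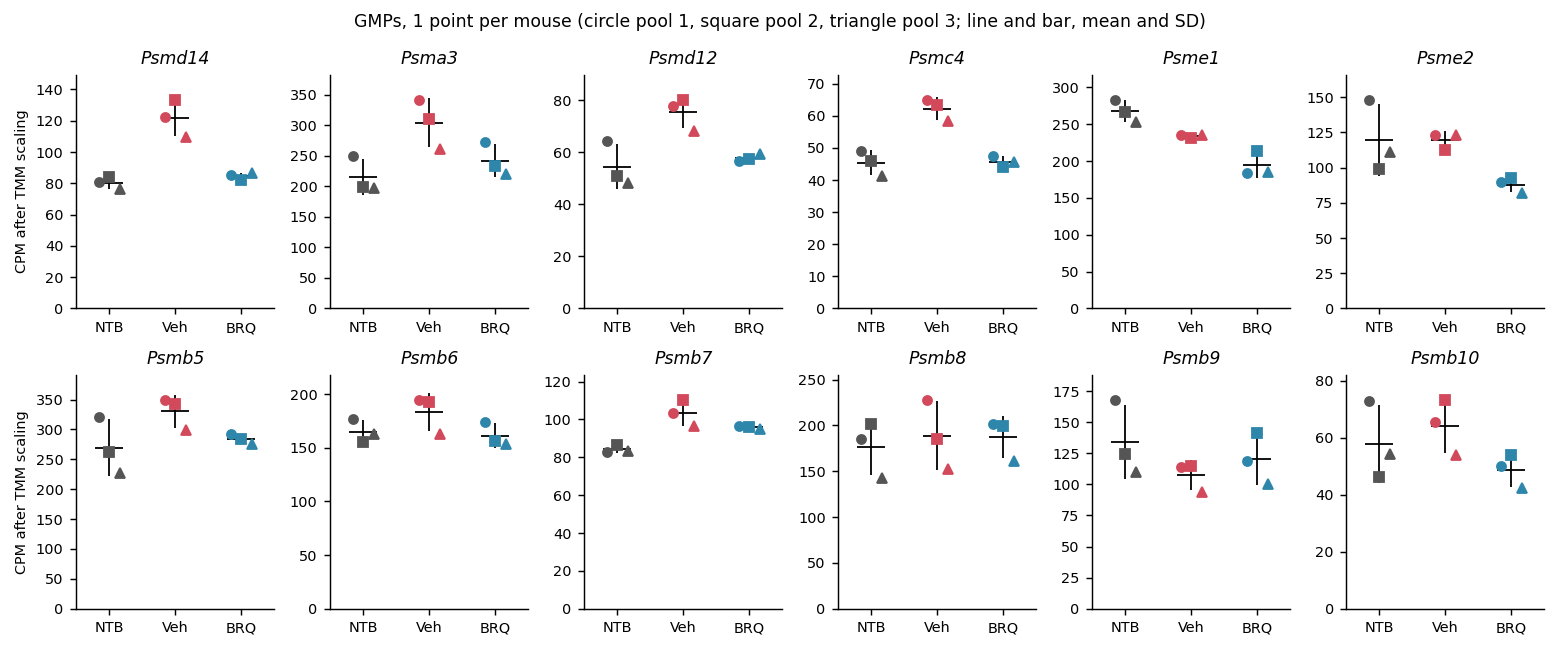
Level in GMPs of 12 proteasome genes in each of the 9 mice, in CPM after TMM scaling (vertical axis, 1 panel per gene), by group, with the mean and SD of each group as a line and bar. Psmd14 lies at 76.1 to 84.1 CPM in NTB mice, 109.9 to 134 in Veh mice and 82.3 to 86.3 in BRQ mice, while Psme1 is lowest in the BRQ mice at 184 to 214.

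As a share of all UMIs, with no scaling between genes, the family without Psmc3ip took 0.531% ± 0.0302 (SD, n = 3) in NTB-GMPs, 0.621% ± 0.0206 in Veh-GMPs and 0.592% ± 0.00875 in BRQ-GMPs. The NTB mice, at 0.503% to 0.563%, lay below all mice with a tumor. The Veh mice (0.598% to 0.636%) and the BRQ mice (0.582% to 0.598%) overlapped, 1 BRQ mouse lying just above the lowest Veh mouse.

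The 3 cutting subunits and their immunoproteasome counterparts were followed apart. Of the constitutive ones, Psmb5, the chymotrypsin-like subunit, had 320.5, 262 and 227 CPM in NTB-GMPs, 349, 342 and 298 in Veh-GMPs and 293, 284 and 275 in BRQ-GMPs. Psmb6, the caspase-like subunit, had 177, 156 and 163, then 195, 192 and 163, then 174, 156 and 153. Psmb7, the trypsin-like subunit, had 82.8, 86.6 and 83.3, then 104, 110.3 and 96.5, then 96.6, 96.2 and 94.8. The Veh mice lay above the NTB mice in Psmb7 and above the BRQ mice in Psmb5, and overlapped them in Psmb6. The fitted changes of Psmb5, Psmb6 and Psmb7 were 0.31 (adjusted p = 0.0553), 0.16 (0.329) and 0.28 (0.0595) in Veh against NTB and -0.21 (0.153), -0.18 (0.184) and -0.10 (0.471) in BRQ against Veh. In BRQ against NTB they were 0.10 (0.646), -0.02 (0.927) and 0.18 (0.261), so none passed the test as fitted here. Other settings did call them in Veh against NTB: Psmb5 passed with the pool as a block (0.31, adjusted p = 0.0034), with the depth covariate (0.57, adjusted p = 0.0165) and in clusters 0 and 3 alone (0.57 and 0.55), and Psmb7 passed with the block (0.28, adjusted p = 0.0336) and in cluster 0 alone (0.38).

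Psmb8, the counterpart of Psmb5, had 185, 201 and 143 CPM in NTB-GMPs, 228, 186 and 153 in Veh-GMPs and 202, 199 and 161 in BRQ-GMPs. Psmb9, the counterpart of Psmb6, had 168, 124 and 110.2, then 114, 115 and 93.8, then 119, 141 and 101. All groups of both genes overlapped, and the mouse of pool 3 was the lowest of its group in each. Within every pool Psmb9 was lower in the Veh mouse than in the NTB mouse, as were 22.4% of all genes. It was higher in the BRQ mouse than in the Veh mouse in every pool, as were 24.4% of all genes. Psmb8 had no common direction within pools in these 2 comparisons. The fitted changes of Psmb8 and Psmb9 were 0.12 (adjusted p = 0.634) and -0.28 (0.207) in Veh against NTB, -0.02 (0.943) and 0.17 (0.417) in BRQ against Veh, and 0.10 (0.735) and -0.12 (0.68) in BRQ against NTB. Psmb10, the counterpart of Psmb7, had 73.0, 46.4 and 54.4 CPM in NTB mice, 65.5, 73.3 and 54.0 in Veh mice and 50.2, 53.9 and 42.4 in BRQ mice. It fell in BRQ-GMPs against Veh-GMPs without overlap (-0.37, SE 0.12, adjusted p = 0.0363). This call was lost with DESeq2 (adjusted p = 0.113), library size alone (-0.18), hashtags called by tag ratio (-0.31), cluster 0 alone (-0.31) and 4 of the 9 mice left out in turn (-0.40 to -0.25). Its changes against NTB were 0.17 in Veh (0.517) and -0.20 in BRQ (0.464).

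Psmb8 and Psmb9 lie close together in the MHC region of chromosome 17, from 34197721 to 34201454 and from 34181987 to 34187764, with Tap1, a peptide transporter gene, between them from 34187553 to 34197225. Tap1 and Psmb9 run in opposite directions and overlap at their starts, while the counts come from the 3' ends of transcripts.

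Each immunoproteasome subunit was also given as a percent of its own UMIs plus those of its counterpart. Every UMI is 1 tag from the 3' end of a transcript, so no length correction was made, and genes may differ in how well they are captured. In GMPs the Psmb9 share was 44.5% ± 4.17 (SD, n = 3) in NTB mice, 36.9% ± 0.393 in Veh mice and 42.5% ± 4.34 in BRQ mice. The Veh mice, at 36.6% to 37.3%, lay below the NTB mice, at 40.4% to 48.7%. The smallest p that an exact test of 3 against 3 mice could give is 0.1, and none was run. The Psmb8 share was 39.6% ± 3.52, 36.2% ± 2.94 and 39.6% ± 2.40, and the Psmb10 share was 40.4% ± 6.03, 38.2% ± 2.09 and 33.7% ± 2.57. For these both, NTB and Veh mice overlapped. The depth differed widely: the Psmb10 share of the NTB mouse of pool 1, 46.9%, rested on 67 UMIs of Psmb10 and 76 of Psmb7 (exact 95% interval 38.5% to 55.4%, counting error only).

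The share also varied between cell types. For Psmb8 the median over mice was 69.4% (range 63.6% to 71.6%, 8 mice) in HSC/MPP-like cells, the stem and early progenitor cells, and 56.2% (53.7% to 58.0%) in monocyte/MDP-like cells. It was 47.4% (41.7% to 53.3%) in neutrophil-like cells, 38.7% (33.9% to 43.5%) in GMPs and 31.2% (23.9% to 35.5%, 7 mice) in erythroid/MEP-like cells. The first 3 of these ranges did not overlap with each other, while neighbours among neutrophil-like cells, GMPs and erythroid/MEP-like cells overlapped. The neutrophil-like clusters differed in Psmb8: its median share was 64.7% (50% to 76.9%) in cluster 2, 43.5% in cluster 4 and 43.75% in cluster 9. The order thus did not hold for cluster 2, whose median lay above that of monocyte/MDP-like cells. Psmb9 had another order, with 63.6% (56.2% to 71.8%) in neutrophil-like cells, 58.8% (50.4% to 64.9%) in HSC/MPP-like, 50.6% (47.8% to 55.5%) in monocyte/MDP-like, 40.4% (36.6% to 48.7%) in GMPs and 25.4% (20.2% to 30.2%) in erythroid/MEP-like cells. The first 2 overlapped, and in NTB mice their order was the other way, 60.0% ± 3.70 (SD, n = 3) in neutrophil-like and 61.4% ± 3.09 in HSC/MPP-like cells. By cluster, the median Psmb9 share was 78.0% in neutrophil-like cluster 2, most of whose cells came from Veh and BRQ mice, 56.3% in cluster 4 and 57.7% in cluster 9. Psmb10 had its lowest median share in neutrophil-like cells, at 21.4% (14.6% to 29.8%), against 58.3% (47.8% to 65.7%) in HSC/MPP-like, 48.8% (42.9% to 52.6%) in monocyte/MDP-like, 35.9% (30.9% to 46.9%) in GMPs and 30.4% (18.8% to 37.2%) in erythroid/MEP-like cells. Ranked by median, each type overlapped the next.

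**Figure D3:**
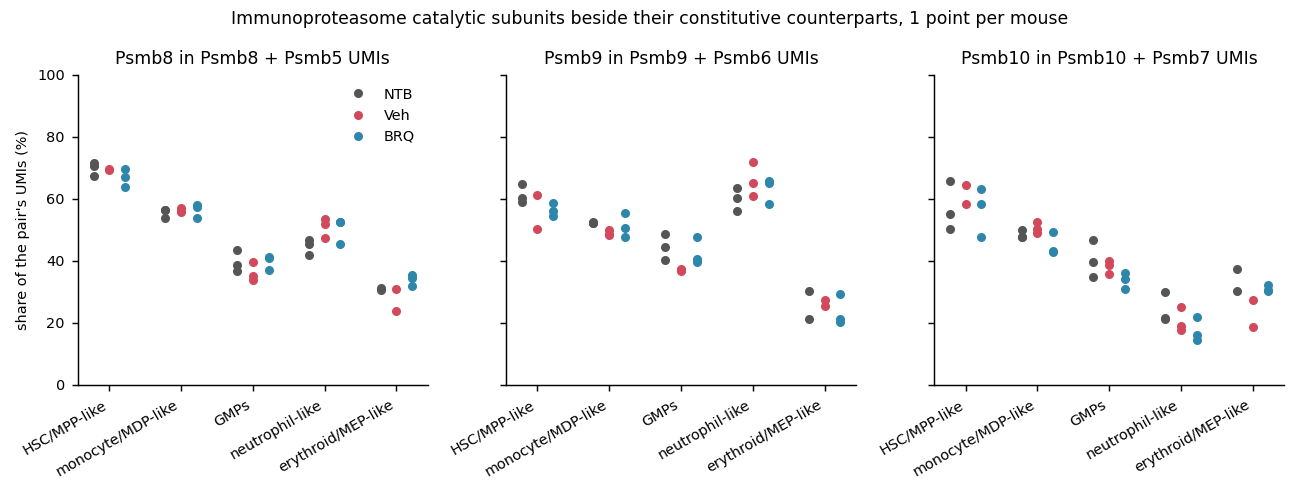
Percent of UMIs from the immunoproteasome subunit of each pair (Psmb8 with Psmb5, Psmb9 with Psmb6, Psmb10 with Psmb7; vertical axis) in 5 cell types, 1 point per mouse, coloured by group. By median, HSC/MPP-like cells lie highest for Psmb8 and Psmb10, and neutrophil-like cells lie lowest for Psmb10. For Psmb9 the neutrophil-like and HSC/MPP-like points overlap. For Psmb10 the HSC/MPP-like points overlap the monocyte/MDP-like ones, and the neutrophil-like points overlap the erythroid/MEP-like ones.

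The RNA of the whole family was most abundant in monocyte/MDP-like cells, with a median of 0.649% of all UMIs (range 0.545% to 0.722% over 9 mice), followed by GMPs at 0.597% (0.503% to 0.636%). Erythroid/MEP-like cells had 0.524% (0.474% to 0.578%), HSC/MPP-like cells 0.461% (0.419% to 0.518%) and neutrophil-like cells 0.273% (0.249% to 0.298%). Each neighbour in this order overlapped the next, except that neutrophil-like cells lay below the other 4 types. Types sampled in fewer mice fell within this order: lymphoid progenitor-like cells had 0.578% (3 mice), basophil/mast/eosinophil-like cells 0.489% (4 mice) and macrophage-like cells 0.385% (4 mice). Neutrophil-like cells were also shallow, with median UMIs per cell of 5514 to 6364 in NTB mice, 1560.5 to 1878 in Veh mice and 2594 to 3413.5 in BRQ mice.

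Single genes did not follow that order alike. In CPM without TMM scaling, Psma7 had a median of 722 (range 661 to 861) in monocyte/MDP-like cells, 554 (506 to 628) in GMPs and 348 (280.5 to 428) in HSC/MPP-like cells. Psmb2 had its highest median in GMPs, 242 (185 to 287), against 87.7 (66.9 to 119) in HSC/MPP-like cells. Psme1 ran the other way, at 361 (338 to 383) in HSC/MPP-like cells, 304 (265 to 322) in monocyte/MDP-like cells and 226 (193 to 260.5) in GMPs. Among the named types Psmb8 was highest in monocyte/MDP-like cells at 289 (223 to 355) and HSC/MPP-like cells at 267 (235 to 319), which overlapped, and lower in GMPs at 185 (144 to 212). Cluster 7, left unnamed, had 305 (212 to 415). Psmd7 of the lid was highest among the named types in erythroid/MEP-like cells at 191 (174 to 219), above the 27.0 (17.3 to 32.6) of neutrophil-like cells. Psme2b was near 0 in most cells and reached a median of 46.1 (0 to 71.2, 4 mice) in macrophage-like cells.

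**Figure D4:**
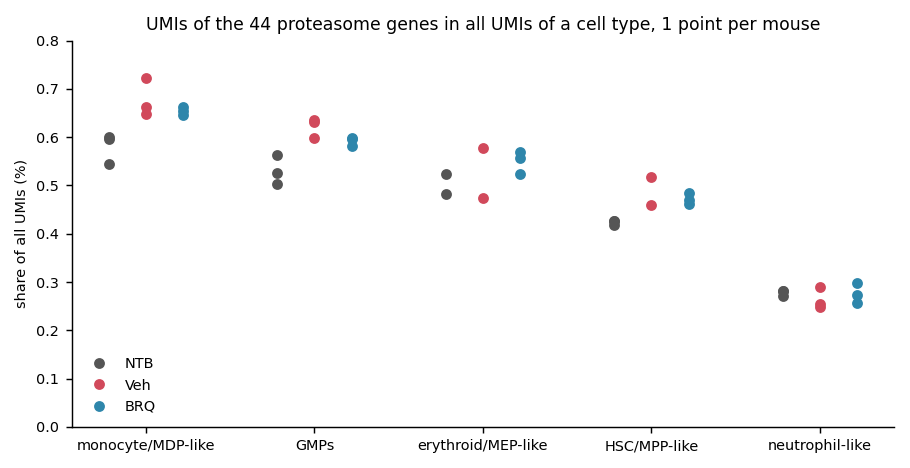
Percent of all UMIs taken by the proteasome genes without Psmc3ip (vertical axis) in each cell type, 1 point per mouse, coloured by group. Monocyte/MDP-like cells and GMPs lie highest, neutrophil-like cells lie lowest at 0.249% to 0.298%, and in GMPs the NTB mice lie below the Veh and BRQ mice.

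In monocyte/MDP-like cells, the other named class of myeloid progenitors fitted over all 9 mice, 5 of 44 genes rose in Veh against NTB and 0 fell (edgeR), where 2.81% of all genes were called and 1.78% were called higher. The fitted change was above 0 for 41 genes (49.7% of all genes), with a median of 0.27, and all 5 genes were also called in GMPs. Psmd7, of the lid, had 115, 93.1 and 100.3 CPM in NTB mice and 174, 135 and 149 in Veh mice (0.63, SE 0.11, adjusted p = 0.00397). Psmd12 had 41.8, 74.7 and 44.4 CPM against 88.1, 85.4 and 76.1 (0.58, SE 0.15, adjusted p = 0.0383). Both were apart between the groups, Psmd12 by little because of the NTB mouse of pool 2. Psmd14 had 102, 84.5 and 74.1 CPM against 136, 111 and 115 (0.55, SE 0.12, adjusted p = 0.016), and Psma3 had 209, 203 and 181 against 326, 289 and 225 (0.52, SE 0.12, adjusted p = 0.0192), again apart. Psmc4 was the fifth, with groups that overlapped (0.55, SE 0.15, adjusted p = 0.0419). The count ran from 1, without the NTB mouse of pool 2 or 3, to 10, without the Veh mouse of pool 3, and was 2 without the Veh mouse of pool 1 or 2. No named gene stayed called in every case. DESeq2 called 4, all higher, where it called 4.58% of the 3803 genes it kept higher. The fit with the pool as a block called 11, all higher, where 3.26% of all genes were called higher, and with the median depth per cell as a covariate 0 were called, as were 0 of all 9390 genes. In that fit Psmd7 had 0.68, Psma3 0.45, Psmd14 0.38 and Psmd12 0.28. Median UMIs per cell ran from 13877.5 to 17655 in NTB mice and from 21519.5 to 23976 in Veh mice, so it cannot tell depth from tumor.

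In BRQ against Veh, Psma5 fell in monocyte/MDP-like cells and no other proteasome gene was called, where 4.98% of all genes were called and 2.88% were called lower. Its level was 251, 229.6 and 199 CPM in Veh mice and 182, 175 and 149 in BRQ mice, without overlap (-0.43, SE 0.11, adjusted p = 0.0245). The fitted change was above 0 for 4 of 44 genes (50.3% of all genes), with a median of -0.19. With library size alone the median over all genes was 0.13, that of the family was -0.07, and 0 were called, while the fit with the pool as a block called 5, all lower, where 4.95% of all genes were called lower. That with the depth covariate called 0, where 0.128% of all genes were called lower. In BRQ against NTB 0 were called by edgeR and 0 by DESeq2, where 2.88% of all genes were called. At an unadjusted p under 0.05 stood 6 of the 44 (13.6%), against 13.7% of all genes. The cutting subunits were not called in any of the 3 comparisons. Psmb8 had 278, 269 and 222 CPM in NTB mice, 380.0, 303 and 274 in Veh mice and 318, 314 and 265 in BRQ mice, and Psmb5 had 239, 207 and 173, then 287, 242 and 214, then 235, 227 and 229. For both genes the groups overlapped in every comparison.

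**Figure D5:**
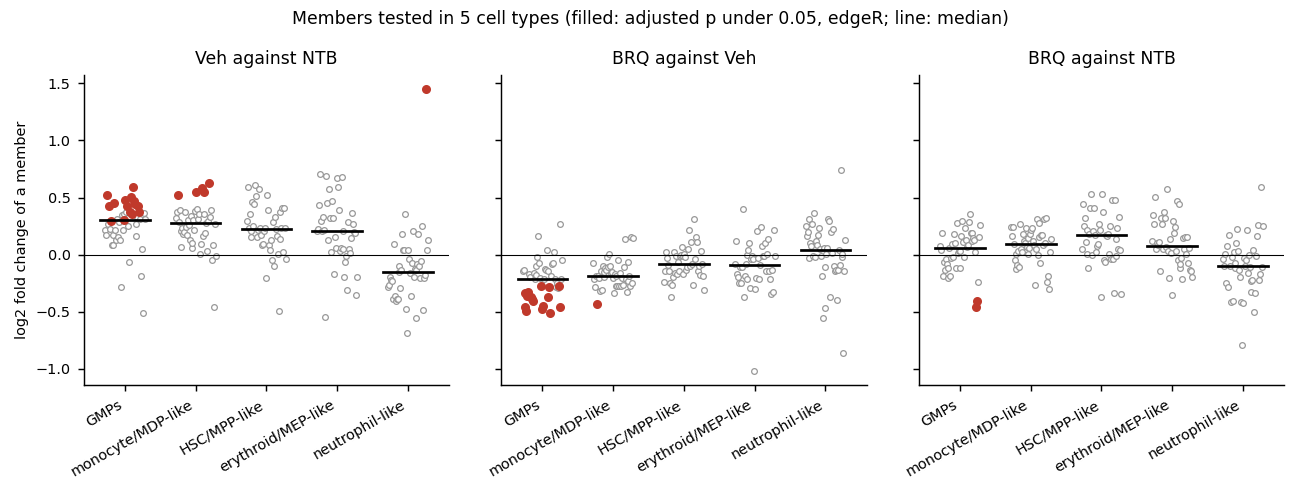
Log2 fold change of the proteasome genes (vertical axis) in 5 cell types for each of the 3 comparisons, 1 point per gene, with called genes filled. In Veh against NTB the points of GMPs and monocyte/MDP-like cells lie mostly above 0 (medians 0.30 and 0.27) and those of neutrophil-like cells mostly below it (median -0.16).

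In HSC/MPP-like cells (8 mice, without the Veh mouse of pool 2, which had 8 such cells) 0 of 42 genes were called in any comparison by edgeR or DESeq2. In Veh against NTB 37 had a fitted change above 0 (48.5% of all genes), with a median of 0.23. In Veh against NTB, BRQ against Veh and BRQ against NTB 0.399%, 0.0105% and 0.483% of all genes were called. At an unadjusted p under 0.05 stood 9, 2 and 9 of the 42 genes, against 7.41%, 3.98% and 8.06% of all genes. In erythroid/MEP-like cells (7 mice, with 2 NTB and 2 Veh) 0 of 42 genes were called by either tool, where 1.19%, 0.146% and 0.621% of all genes were called. At an unadjusted p under 0.05 stood 9, 1 and 6 of them, against 10%, 6.94% and 9.41% of all genes. In Veh against NTB 34 of the 42 had a fitted change above 0 (48.8% of all genes), with a median of 0.21. Both cell types had fewer mice than GMPs.

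In neutrophil-like cells the Veh-NTB changes lay mostly below 0. There 12 of 43 genes had a fitted change above 0 (46% of all genes), with a median of -0.16, and 1 was called, Psme2b, where 27.1% of all genes were called and 15.4% were called higher. It had 5.57, 5.05 and 6.48 CPM in NTB mice and 13.4, 19.8 and 18.4 in Veh mice (1.45, SE 0.31, adjusted p = 0.00458), resting on 3 to 34 UMIs per mouse. In BRQ mice it had 7.58, 8.56 and 11.0 CPM, between the other groups. It was not called within cluster 2 alone, and with median depth per cell as a covariate 0 genes were called, of the family or of all 7907, and the median of the family was 0.67 in place of -0.16. In BRQ against Veh and BRQ against NTB 0 genes were called by edgeR or DESeq2, where 0.0506% and 13.1% of all genes were called. At an unadjusted p under 0.05 stood 3 and 0 of the 43, against 12.2% and 28.9% of all genes. The cells behind these values were not alike: 978 of 1290 NTB cells were in cluster 4, led by Camp, Ltf and Ngp, granule genes of immature neutrophils, while 813 of 992 Veh cells and 738 of 1178 BRQ cells were in cluster 2, led by genes such as Il1b and Cxcr2. Psmd14 had a median of 62.3 CPM without TMM scaling (47.1 to 82.8) in cluster 4 and 13.7 (0 to 38.3) in cluster 2, and Psme2b had 4.45 (0.799 to 8.72) and 25.6 (9.58 to 33.5). Neither stage nor depth can be told apart from group in the whole class.

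The Veh-NTB difference was compared between GMPs and neutrophil-like cells by an interaction term over both. For 4 genes it was higher in GMPs and for 1 lower, of 43 tested (edgeR, adjusted p under 0.05), where 19.7% of all genes differed, 8.06% higher and 11.7% lower. The interaction was 1.06 for Psmd14 (SE 0.25, adjusted p = 0.00491), 0.76 for Psmb2 (SE 0.22, 0.0181), 0.72 for Psmc3 (SE 0.23, 0.0323) and 0.66 for Psma3 (SE 0.21, 0.0324). It was -2.01 for Psme2b (SE 0.61, 0.0233). Within cluster 4 alone, over 8 mice, the Veh-NTB changes of Psmd14, Psmb2, Psmc3 and Psma3 were 0.39, 0.36, 0.33 and 0.35, against -0.55, -0.39, -0.47 and -0.19 in the whole class, and none passed the test (adjusted p from 0.547 to 0.655). At an unadjusted p under 0.05 the interaction stood for 14 of the 43 genes (32.6%), against 32.8% of all genes. In BRQ against Veh and BRQ against NTB the interaction was called for 0 genes by edgeR or DESeq2, where 1.29% and 7.82% of all genes were called. At an unadjusted p under 0.05 stood 12 and 1 of the 43, against 15.3% and 22.7% of all genes.

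GMPs also came from several clusters. Cluster 0 held 57.25% of NTB-GMPs, 56.53% of Veh-GMPs and 37.64% of BRQ-GMPs, and cluster 3 held 11.75%, 23.48% and 38.53%. Cluster 1, left unnamed, held 23.75%, 14.7% and 16.88%. Over all cells of a cluster, the family took a mean of 0.405% of UMIs in cluster 1 in NTB mice. It took 0.482% in cluster 0 and 0.502% in cluster 3 of the same mice. The part of this mix in the GMP results was not tested. Between Veh and NTB Psmd14 rose by 0.61 within cluster 0 and by 0.54 within cluster 3, and 30 and 20 proteasome genes were called, all higher, where 10.2% and 7.8% of all genes were called higher. Between BRQ and Veh 8 and 5 were called, all lower, where 5.11% and 5.62% of all genes were called lower. Between BRQ and NTB 4 were called higher and 1 lower in cluster 0, where 4.18% and 3.13% of all genes were, and 2 higher and 1 lower in cluster 3, where 2.96% and 2.37% were.

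Genes that build, feed or regulate the proteasome were read from 9 lists in GMPs. Their counts stand against the shares of all genes in the same fits: 6.63% higher and 4.68% lower in Veh against NTB, 6.08% higher and 7.37% lower in BRQ against Veh, and 3.46% lower in BRQ against NTB. Of 10 assembly factors 1 rose in Veh-GMPs, Psmg3, a chaperone of the alpha ring (0.63, SE 0.13, adjusted p = 0.00214), and it fell in BRQ-GMPs against Veh (-0.32, adjusted p = 0.0288). The median change of the list was 0.14 and then -0.03. Of 13 partners of the particle 3 rose in Veh-GMPs (median 0.16), among them Txnl1, a thioredoxin bound to the cap (0.56, SE 0.12, adjusted p = 0.00445), and Uchl5, a deubiquitinase of the cap (0.50, SE 0.11, adjusted p = 0.00397). Between BRQ and Veh 2 of the 13 fell (median -0.04), with Txnl1 at -0.34 (adjusted p = 0.0295). Uchl5 stayed higher than NTB in BRQ-GMPs (0.38, adjusted p = 0.0317), the single call of that list (median 0.19), and no assembly factor was called there (median 0.09).

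Of 9 tested genes around NRF1, the factor that drives proteasome genes when the particle is short, 3 rose in Veh-GMPs (median 0.03) and 4 fell in BRQ-GMPs against Veh (median -0.07), while 0 were called in BRQ against NTB. Psmd12 is on that list too. Syvn1, a ubiquitin ligase of the endoplasmic reticulum (ER), rose in Veh-GMPs (0.65, SE 0.21, adjusted p = 0.0475) and fell in BRQ-GMPs against Veh (-0.63, SE 0.14, adjusted p = 0.00344). Of 12 genes of p97 and substrate delivery, 2 rose (median 0.21), Vcp, which is p97 itself (0.39, SE 0.09, adjusted p = 0.00537), and Ubxn4 (0.36, SE 0.09, adjusted p = 0.0149). In BRQ against Veh 3 fell (median -0.10), among them Ufd1, a partner of p97 (-0.43, adjusted p = 0.0201), and Ubxn4 (-0.39, adjusted p = 0.00187), and 0 were called in BRQ against NTB.

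ER-associated degradation hands misfolded proteins of the ER to the proteasome. Of its 17 genes 5 rose in Veh-GMPs (median 0.28) and 9 fell in BRQ-GMPs against Veh (median -0.30), and 1 was below NTB in BRQ-GMPs (median -0.04). DESeq2 called 2, 8 and 2 of them in these comparisons. Sdf2l1, a helper of ER chaperones, had a mean of 234 CPM ± 16.1 (SD, n = 3) in NTB mice, 443 ± 40.0 in Veh mice and 156 ± 22.4 in BRQ mice. Its change was 0.93 in Veh against NTB (SE 0.11, adjusted p = 9.64e-06), -1.51 in BRQ against Veh (SE 0.10, adjusted p = 4.95e-10) and -0.58 in BRQ against NTB (SE 0.11, adjusted p = 0.00212). Derl3, a channel of the same route, had 50, 10 and 17 UMIs in the Veh mice and 3, 2 and 4 in the BRQ mice, a ratio of BRQ to Veh of 0.0894 (exact 95% interval 0.0394 to 0.179, counting error only). The NTB mice had 3, 3 and 1 UMIs of Derl3, on 998154 to 2068775 UMIs in all per mouse.

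Of 7 genes of ubiquitin supply 0 were called in Veh against NTB by edgeR (median 0.07), and 1 fell in BRQ against Veh (median -0.09) and in BRQ against NTB (median -0.0054). This was Rps27a, a fusion of ubiquitin with a ribosomal protein (-0.61, adjusted p = 0.00153, and -0.61, adjusted p = 0.00376). Of 9 tested genes of class I peptide loading 3 rose and 2 fell in Veh-GMPs (median -0.26). Calr and Pdia3, chaperones of the ER that also serve other proteins, rose by 0.70 (SE 0.09, adjusted p = 1.75e-05) and 0.59 (SE 0.09, adjusted p = 0.000205). Both fell in BRQ against Veh, by 1.03 and 0.89 on the log2 scale (adjusted p = 2.51e-08 and 2.38e-07), where 3 genes of the list fell (median 0.08). In BRQ against NTB 3 fell (median -0.18), among them Tapbp, the peptide editor of class I (-0.42, adjusted p = 0.0151), and Calr (-0.32, adjusted p = 0.0274). Of 12 interferon regulators 1 was lower in Veh-GMPs, the receptor chain Ifngr1 (-0.33, adjusted p = 0.0222; median of the list -0.27), and 0 were called in the other comparisons (medians 0.12 and -0.14). Of 7 interferon targets that could be tested, 0 were called in any comparison (medians -0.02, -0.11 and 0.08). In each list and comparison with 0 calls by edgeR, DESeq2 called 0 as well, and 1 to 4 genes had an unadjusted p under 0.05, where 25.7%, 26.5% and 20.9% of all genes did in Veh against NTB, BRQ against Veh and BRQ against NTB. The lists overlap in part, since Vcp, Syvn1 and the assembly chaperones Psmd5, Psmd9 and Psmd10 count in more than 1 place.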

How the data were processed

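The authors deposited raw counts of UMIs per gene and hashtag for each cell barcode, 1 matrix per pool, from 10x 3' libraries. The submitters' processing notes name Cell Ranger 6.0.0, Seurat and mm10, and no source names the annotation version. Gene positions came from GENCODE M21 on GRCm38. Barcodes over 15% mitochondrial UMIs or outside 500 to 7500 detected genes (worded as transcripts in the study) were left out, and 32762 of 39488 remained. HTODemux (Seurat 5.3.0, positive quantile 0.99) gave singlets to mice. Cells marked by Scrublet were left out only in an alternative. Cells were clustered (scanpy 1.11.5, leidenalg 0.10.2, 2000 variable genes without the proteasome genes, 30 components, 20 neighbours, resolution 0.8) into 19 clusters, of which 4 stayed unnamed by their marker lists and 1 because Scrublet marked over 50% of its cells. GMPs had ln(1 + Ms4a3 per 10000 UMIs) over 3.

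Counts were summed per mouse and cell type (at least 20 cells) and fitted with edgeR 4.0.16 (R 4.3.3, TMM, filterByExpr, quasi-likelihood, two-sided) over all groups, without the pool. A gene was called at a Benjamini-Hochberg adjusted p under 0.05 over all genes. In a simulation of Veh against NTB in GMPs on 10331 genes, 26% of genes changed by 0.5 on the log2 scale and 66% of those changed by 1 were called, with 4 false calls. DESeq2 1.42.0, other scalings and filters, the pool as a block, each mouse left out, and other choices of cells were alternatives. Named are the 6 cutting subunits, the 5 largest and 5 smallest called changes per GMP comparison, the 2 largest and 2 smallest in other cell types, and 2 called genes per list. Other genes were named after their values were seen, and 1 gene of the lists is not reported here. The proteasome genes, the lists and the tests were chosen with earlier results of these data known.

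The labels tie the mice of a pool to 1 lane. Deviations from the group means correlated across genes with a median r of 0.0881 within pools (lowest -0.019) and -0.0456 between pools in GMPs.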

Additional observations from a re-analysis of the deposited data

Results flagged for a closer look

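The Veh-NTB difference of 5 proteasome genes was unequal in GMPs and in neutrophil-like cells by an interaction term (edgeR, adjusted p under 0.05), 5 of 43 tested, where 19.7% of all genes passed the same test. The family thus passed less often than all genes did. At an unadjusted p under 0.05 stood 32.6% of the family, against 32.8% of all genes. As GMPs minus neutrophil-like cells on the log2 scale the difference was 1.06 for Psmd14, 0.76 for Psmb2, 0.72 for Psmc3, 0.66 for Psma3 and -2.01 for Psme2b. For Psmd14, Psmb2, Psmc3 and Psma3 the change was 0.59, 0.45, 0.31 and 0.52 in GMPs, where each passed the test, and -0.55, -0.39, -0.47 and -0.19 in neutrophil-like cells, where none did. Psme2b had -0.51 in GMPs (adjusted p = 0.534, on 1 to 8 UMIs per NTB mouse) and 1.45 in neutrophil-like cells. Neutrophil-like cells lay mostly in cluster 4 in NTB mice (978 of 1290) and in cluster 2 in Veh mice (813 of 992), and within cluster 4 alone the 4 subunit genes had changes of 0.33 to 0.39. The part of this shift in the interaction was not tested.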

How the results depend on the processing

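No named and called proteasome gene changed its direction under any alternative. Counts of called genes that moved by more than 1.5 times were as follows, as Veh against NTB, BRQ against Veh and BRQ against NTB where more than 1 is given. In GMPs (15, 16 and 2) the pool as a replicate block gave 24 (1 lower), 23 and 4 (2 higher, 2 lower), library size alone 10, 4 and 9, median depth per cell as a covariate 25 in BRQ against Veh (all lower, where 11.1% of all genes were), an Ms4a3 limit of 2.5 gave 28 and 7 against NTB, the GMP-like clusters 32 and 7 against NTB (in both the 7 are 6 higher and 1 lower), cluster 0 alone 30, 8 and 5 (of the 5, 4 higher and 1 lower), and cluster 3 alone 5 in BRQ against Veh. The calls of BRQ against NTB, both lower as fitted, were 2 higher and 1 lower with the depth covariate and in cluster 3. Of all genes, the Ms4a3 limit called 12.2% higher in Veh against NTB and 7.72% higher and 7.97% lower in BRQ against NTB, and the GMP-like clusters 13.3%, 5.52% and 4.61%. In neutrophil-like cells 27.1%, 0.0506% and 13.1% of all genes were called as fitted. For the family there (1, 0 and 0) Veh against NTB had 2 with the block, 0 with the depth covariate, 3 with the cell limits read as UMIs, 2 with hashtags called by tag ratio and 0 in cluster 2 alone, and BRQ against NTB had 2 with the limits as UMIs, 1 by tag ratio and 1 in cluster 4 alone. In monocyte/MDP-like cells (5, 1 and 0) Veh against NTB had 10 without the filter on low counts, 11 with the block, 0 with the depth covariate and 9 by tag ratio, BRQ against Veh had 0 with library size alone, 5 with the block, 0 with the depth covariate and 5 by tag ratio, and BRQ against NTB had 2 with library size alone. In erythroid/MEP-like cells (0 each) Veh against NTB had 2 without the filter, and in HSC/MPP-like cells (0 each) it had 1 with the limits as UMIs, and BRQ against NTB 1 without the filter. As fitted, the interaction was called for 19.7%, 1.29% and 7.82% of all genes. For the family (5, 0 and 0) it had 8 without the filter, 11 by tag ratio, 21 at Ms4a3 2.5 and 15 in GMP-like clusters for Veh against NTB, 2 without the filter and 1 without Scrublet's cells for BRQ against Veh, and 1 by tag ratio and 1 at Ms4a3 2.5 for BRQ against NTB. Where a count here stands without the share of all genes called in that setting, it cannot be set against the other genes. The choice of cells by cluster was added after the data were seen.

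With each mouse left out, the counts ran from 4 to 21, 5 to 17 and 1 to 2 in GMPs, 1 to 5, 0 to 1 and 0 to 0 in neutrophil-like cells, 1 to 10, 0 to 5 and 0 to 1 in monocyte/MDP-like cells, and 1 to 10, 0 to 5 and 0 for the interaction. Erythroid/MEP-like and HSC/MPP-like counts are left out, since some of their fits held a single mouse in a group. The shares of all genes called in these fits are not given. A change in the family's count can therefore not be told from a change over all genes.

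Uncalled cutting subunits in GMPs passed the test in 28 values under other settings and 4 with a mouse left out. Only part of these is named above, for Psmb5 and Psmb7 in Veh against NTB. Their sign turned as follows. In Veh against NTB, Psmb8 ran from -0.070 to 0.27 with each mouse left out, Psmb9 had 0.27 (depth covariate) and Psmb10 had -0.0048 (cluster 0). In BRQ against Veh, library size alone gave 0.011 for Psmb6, 0.094 for Psmb7 and 0.17 for Psmb8, Psmb8 also had 0.0074 (tag ratio), 0.031 (Ms4a3 2.5) and 0.0016 (GMP-like clusters) and ran from -0.17 to 0.17 with each mouse left out, and Psmb9 had -0.12 (depth covariate). In BRQ against NTB, with each mouse left out, Psmb5 ran from -0.028 to 0.22, Psmb6 from -0.085 to 0.020, Psmb8 from -0.060 to 0.23 and Psmb9 from -0.26 to 0.041. Psmb6 there also had 0.14 (library size), 0.015 (no filter), 0.10 (depth covariate), 0.099 (tag ratio), 0.15 (Ms4a3 2.5), 0.18 (GMP-like clusters), 0.10 (cluster 0) and 0.35 (cluster 3), Psmb9 had 0.042 (library size) and 0.15 (depth covariate), and Psmb10 had 0.0093 (depth covariate). The causes were not tested. Reading the cell limits as UMIs could not be run for GMPs, monocyte/MDP-like and erythroid/MEP-like cells, nor the Scrublet and tag-ratio fits for erythroid/MEP-like cells. Without the cells marked by Scrublet 1 Veh mouse in place of 2 had 20 erythroid/MEP-like cells, and the shares in Veh went from 26.3% to 16.5% for Psmb9, from 23.1% to 32.8% for Psmb10 and from 27.4% to 31.5% for Psmb8. Psmb9 in BRQ mice went from 23.6% to 20.03%, and Psmb8 in NTB mice from 30.9% to 31.3%, while Psmb8 in HSC/MPP-like cells of Veh mice went from 69.4% to 69.0%. In neutrophil-like cells the uncalled Veh-NTB changes of Psmd14, Psmb2, Psmc3 and Psma3 turned from negative to 0.39, 0.36, 0.33 and 0.35 in cluster 4 alone, and those of Psmb2, Psmc3 and Psma3 to 0.25, 1.08 and 0.65 in cluster 2 alone. NTB-GMPs numbered 88 to 177 per mouse, which limits the precision of both comparisons with NTB.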
